A study of Mus musculus with 28 samples.

Results

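The 7 genes described here, Hmgcs1, Idi1, Fdft1, Sqle, Lss, Cyp51 and Insig1, were taken by name as genes of cholesterol supply, and all 7 were found among the 29068 gene symbols of the table and among the 18107 genes tested. Of these, 6 encode enzymes of cholesterol synthesis and Insig1 encodes a regulator of the pathway. No uptake receptor is among them, so the genes of uptake were followed as a separate list. Total RNA was sequenced from the wound site of wild-type (MLKL+/+) C57BL/6J mice left to natural wound healing. The mice were 8 weeks old, and the model was a 6 mm punch wound through the full skin of the back. By the study's methods the whole wound site was taken, with its scab and its epithelial margins. The days were 0 (the control), 3, 5, 7, 10, 12 and 14, with 4 libraries per day and 28 in all. The labels give the first time point as day 0, whereas the study lists no day 0 and counts the day of injury as day 1. The name in the labels is kept here. Whether the control tissue held a wound or a scab is not clear. The study's methods speak of both sexes, whereas Xist, the RNA of the inactive X chromosome in females, had 0 to 13 counts in each of the 28 libraries, so none of them showed the level of a female. The labels speak of 5 repeats per day, and 4 per day were analysed. No source ties a library to a separate animal, so P-values measure the spread between these libraries.

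Animal cells build cholesterol from acetyl-CoA. The mevalonate branch ends in isoprenoid units, these are joined to squalene, and squalene is closed into lanosterol, which is trimmed to cholesterol. Transcription of nearly all of these enzymes is driven by the factor SREBP2, whose release from the endoplasmic reticulum is blocked by the INSIG proteins when sterols are plentiful. In skin, keratinocytes make much of their own cholesterol for the barrier of the stratum corneum, and sebaceous glands make sterols and other lipids for sebum.

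The expression of all 7 genes was lower in the wound on days 3, 5 and 7 than on day 0, with the lowest mean level on day 5 for each of them, and had partly returned by day 10. By day 14, Hmgcs1, Idi1, Fdft1, Sqle and Insig1 no longer passed the test against day 0, while Lss and Cyp51 were still lower. The falls on day 5 ran from 44.6% for Hmgcs1 to 64.2% for Lss. By quasi-likelihood F test in edgeR (Benjamini-Hochberg adjusted), the joint comparison of the 7 days gave adjusted p = 3.48e-07 for Insig1 and smaller values for the 6 enzymes, down to 5.51e-18 for Lss.

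The libraries held between 36706513 and 40655764 counts. The 4 libraries of day 0 were less alike than those of any later day, with a common coefficient of biological variation of 26.5% against 5.77% to 10.8%. They fell into 2 pairs. Replicates 2 and 3 had 55970 and 53730 summed CPM (counts scaled to library size) of 6 fibroblast genes, and replicates 1 and 4 had 25000 and 14290. Hair follicle genes summed to 2088 CPM in replicate 1, 698 and 657 in replicates 2 and 3, and 232 in replicate 4. Comparisons of the 7 genes with day 0 are therefore also given against each pair alone where this changes a call or a direction. Markers of skin were present in every library. The 6 basal keratinocyte genes summed to at least 2984 CPM and the 6 fibroblast genes to at least 14290 CPM.

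The RefSeq promoter windows of the members (250 bases before to 50 after the start, GRCm38.p6) were searched on both strands for TCACNCCAC, the form of sterol response element known from the pathway's genes, and windows were found for 5 of the 7. It occurred in 1 of these 5 and in 1.44% of the 27025 genes with a window. Hmgcs1 was the member that held it, at position -137 from the start on the gene's strand, and its window is shown for that reason, with the match in capitals. The window lies at chr13:119690101-119690400 on the plus strand.
Hmgcs1: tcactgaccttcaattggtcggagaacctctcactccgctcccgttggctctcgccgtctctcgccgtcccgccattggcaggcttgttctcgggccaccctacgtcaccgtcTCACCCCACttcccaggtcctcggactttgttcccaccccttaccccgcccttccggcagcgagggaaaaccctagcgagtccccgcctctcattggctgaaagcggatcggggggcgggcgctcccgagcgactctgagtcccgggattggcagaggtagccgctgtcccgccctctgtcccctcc
The shorter CACCCCAC, which overlaps that match by its last 8 bases, occurred in the same 1 of 5 members and in 3.3% of genes. CCAAT was found in 5 of 5 members against 41.1% of genes, and GGGCGG in 5 of 5 against 38.2%. Among the other enzymes of the pathway with a window, 0 of 11 held TCACNCCAC, 1 held CACCCCAC, and 10 each held CCAAT and GGGCGG. A match describes the letters of the window only. Sqle and Fdft1 had no entry in this set.

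Per unit of gene length, Hmgcs1 was the most abundant of the 7, with a mean of 61.4 FPKM (fragment counts divided by gene length and by library size) over the 28 libraries, above 94.0% of the genes tested. Insig1 followed at 40.0 FPKM, Cyp51 at 30.1, Sqle at 24.2 and Idi1 at 11.4. Lss and Fdft1 were the least abundant, at 8.07 and 7.85 FPKM. All values below that are given per library are CPM with TMM scaling, the scale of the tests.

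Hmgcs1 encodes the cytosolic synthase that makes HMG-CoA early in the mevalonate branch. It stood at 293, 367, 369 and 322 CPM in the 4 day 0 libraries, and at 206, 205, 207 and 217 CPM on day 3. On day 5 it stood at 193, 183, 188 and 186 CPM. On day 7 it stood at 189, 184, 179 and 201 CPM. Every wound library of these 3 days was below every library of day 0. The log2 fold change from day 0 was -0.70 (SE 0.0583), -0.85 and -0.84 on these days. On day 10 the level was 261 to 285 CPM and on day 12 it was 267 to 283 CPM, still below all 4 control libraries. On day 14 it was 333, 315, 313 and 339 CPM, within the range of day 0, and the log2 difference of -0.06 had a 95% interval from -0.18 to 0.06 (adjusted p = 0.41, edgeR). The sign of that last difference depended on day 0. It was 0.16 against replicates 1 and 4 alone (adjusted p = 0.025) and -0.18 against replicates 2 and 3 alone (adjusted p = 0.00476, edgeR).

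Idi1 encodes the isomerase that interconverts the building blocks of isoprenoids. It stood at 35.5, 52.8, 50.2 and 46.0 CPM on day 0 and at 20.0, 20.1, 21.3 and 18.1 CPM on day 5. Replicate 1 was the lowest of the controls and still lay above every library of days 3, 5 and 7, which ranged from 18.1 to 24.7 CPM. The log2 fold change was -1.01 (SE 0.0923) on day 3 and -1.21 on day 5. On day 10 the 4 libraries held 43.6, 40.8, 34.2 and 38.3 CPM, and on day 12 they held 36.8, 35.7, 39.0 and 32.8 CPM. These overlapped day 0, and the log2 fold changes of -0.23 (adjusted p = 0.0333, edgeR) and -0.36 (adjusted p = 0.00197, edgeR) passed the test in the fit of all libraries. Without day 0 replicate 2 the day 10 value was -0.16 (adjusted p = 0.163, edgeR), without day 0 replicate 3 it was -0.19 (adjusted p = 0.114), and without day 10 replicate 3 or 4 it did not pass either (adjusted p = 0.148 and 0.0724, edgeR). Against day 0 replicates 1 and 4 alone the differences of days 10 and 12 were -0.05 and -0.16 and did not pass (adjusted p = 0.688 and 0.179, edgeR). On day 14 the difference was -0.20, with a 95% interval from -0.39 to -0.02 and adjusted p = 0.0525 (edgeR). The difference passed with at least 10 counts in every library (-0.21, adjusted p = 0.0422, edgeR). It also passed without day 14 replicate 3 (-0.25, adjusted p = 0.0305, edgeR). Against replicates 1 and 4 it was 0.05 (adjusted p = 0.657, edgeR), and against replicates 2 and 3 it was -0.36 and passed (adjusted p = 0.00033, edgeR).

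Fdft1 encodes squalene synthase, the first step given over to sterols. Its level was 100, 111, 109 and 116 CPM on day 0 and 59.3, 58.5, 58.2 and 63.2 CPM on day 5. The groups did not overlap, and the log2 fold change was -0.87 (SE 0.0532). The level on day 7, at 65.9, 66.9, 69.8 and 66.6 CPM, lay above all 4 libraries of day 5, and Fdft1 was the member called higher between these days (log2 fold change 0.17, adjusted p = 0.0155, edgeR). On day 10 it ranged from 79.7 to 89.4 CPM and on day 12 from 75.6 to 82.0 CPM. On day 14 it held 109, 103, 114 and 99.2 CPM, which overlapped day 0, and the log2 difference of -0.04 had a 95% interval from -0.14 to 0.07. Against day 0 replicates 1 and 4 alone it was 0.05 and against replicates 2 and 3 it was -0.05, and neither passed. Fdft1 overlaps the lysosomal protease gene Ctsb on the opposite strand, with 774 of its 4227 exonic bases shared. Whether counting used strand is not stated, and Ctsb, with 48484 to 135038 counts per library, rose by 1.35 on the log2 scale on day 3, when Fdft1 fell by 0.80.

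Sqle encodes squalene epoxidase, a step that limits the rate of the later pathway. It stood at 86.4, 91.1, 90.0 and 94.5 CPM on day 0, at 56.8, 47.2, 48.1 and 53.7 CPM on day 3 and at 43.1, 41.6, 43.5 and 46.1 CPM on day 5. All libraries of day 5 were below all libraries of day 3, and Sqle was the 1 member called lower between these days (log2 fold change -0.24, adjusted p = 0.00259, edgeR). Against day 0 the log2 fold change was -1.05 (SE 0.0575) on day 5. The level returned in steps. Day 10 libraries held 64.0 to 73.4 CPM, those of day 12 held 74.0 to 76.8 CPM and those of day 14 held 78.8 to 88.9 CPM. The day 14 difference from day 0 was -0.11 on the log2 scale, with a 95% interval from -0.22 to 0.01 (adjusted p = 0.102, edgeR).

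Lss encodes lanosterol synthase, which folds oxidosqualene into the first sterol. It showed the deepest fall of the 7 on days 3, 5 and 7. The level was 81.5, 95.9, 95.0 and 93.7 CPM on day 0, 39.6, 30.4, 33.6 and 31.3 CPM on day 3 and 30.5, 34.0, 34.3 and 32.2 CPM on day 5. On day 7 it was 35.0, 34.2, 35.2 and 33.2 CPM. The wound libraries of these days were all under 40 CPM and the controls all over 80 CPM. The log2 fold change was -1.44 (SE 0.0696), -1.48 and -1.41 on these days. Between days 7 and 10 it rose 1.98-fold, to 68.2, 69.4, 65.7 and 68.5 CPM. It then fell to 54.4 to 62.0 CPM on day 12 and rose to 65.0 to 73.9 CPM on day 14, still below each control library (log2 fold change -0.41, adjusted p = 6.98e-06, edgeR).

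Cyp51 encodes the demethylase that starts the trimming of lanosterol. It stood at 190, 225, 219 and 214 CPM on day 0 and at 83.3, 77.0, 83.2 and 86.8 CPM on day 5. Libraries of days 3, 5 and 7 ranged from 77.0 to 93.0 CPM and did not overlap the controls. The log2 fold change was -1.36 (SE 0.0643) on day 5. On day 10 the level was 144 to 163 CPM, on day 12 it was 128 to 149 CPM and on day 14 it was 139 to 160 CPM, all below the lowest control library. Cyp51 thus kept the largest difference of the 7 on day 14, at -0.52 on the log2 scale (adjusted p = 5.33e-08, edgeR). Cyp51 shares 166 of its 4415 exonic bases with Akap9 on the opposite strand, whose log2 fold changes from day 0 lay between -0.40 and -0.21.

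Insig1 encodes the membrane protein that holds the SREBP complex in the endoplasmic reticulum, and it is itself a target of SREBP. In the day 0 libraries it stood at 96.3, 192, 184 and 116 CPM, a 1.99-fold spread, while on the later days the highest library was at most 1.13 times the lowest. The high libraries were replicates 2 and 3, the same pair that was high in fibroblast genes. The level was 82.5, 89.9, 87.0 and 84.2 CPM on day 3 and 81.2, 75.3, 72.6 and 71.8 CPM on day 5, below every control library. It was 88.4, 85.2, 84.6 and 83.1 CPM on day 7, also below every control library. On days 10 and 12 it was 99.3 to 111 and 109 to 116 CPM, and on day 14 it was 121 to 132 CPM, between the low and the high pair of day 0. The log2 fold changes were -0.78 (SE 0.125), -0.97 and -0.79 on days 3, 5 and 7. These 3 falls held against either pair of controls alone, at -0.26, -0.49 and -0.32 against replicates 1 and 4, and at -1.13, -1.32 and -1.14 against replicates 2 and 3. Later differences depended on the pair. On day 10 Insig1 was -0.48 from all 4 controls (adjusted p = 0.00226), -0.0035 from replicates 1 and 4 (adjusted p = 0.973) and -0.83 from replicates 2 and 3 (adjusted p = 5.7e-14, all edgeR). The day 12 value of -0.39 (adjusted p = 0.0118) did not pass without day 0 replicate 2 or 3 (adjusted p = 0.113 and 0.092, edgeR). It was 0.10 against replicates 1 and 4 (adjusted p = 0.243) and -0.74 against replicates 2 and 3 (adjusted p = 1.25e-12, both edgeR). On day 14 Insig1 was -0.23 from all 4 controls (adjusted p = 0.103), 0.31 above replicates 1 and 4 (adjusted p = 0.000221) and -0.59 from replicates 2 and 3 (adjusted p = 1.31e-10, all edgeR).

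**Figure D1:**
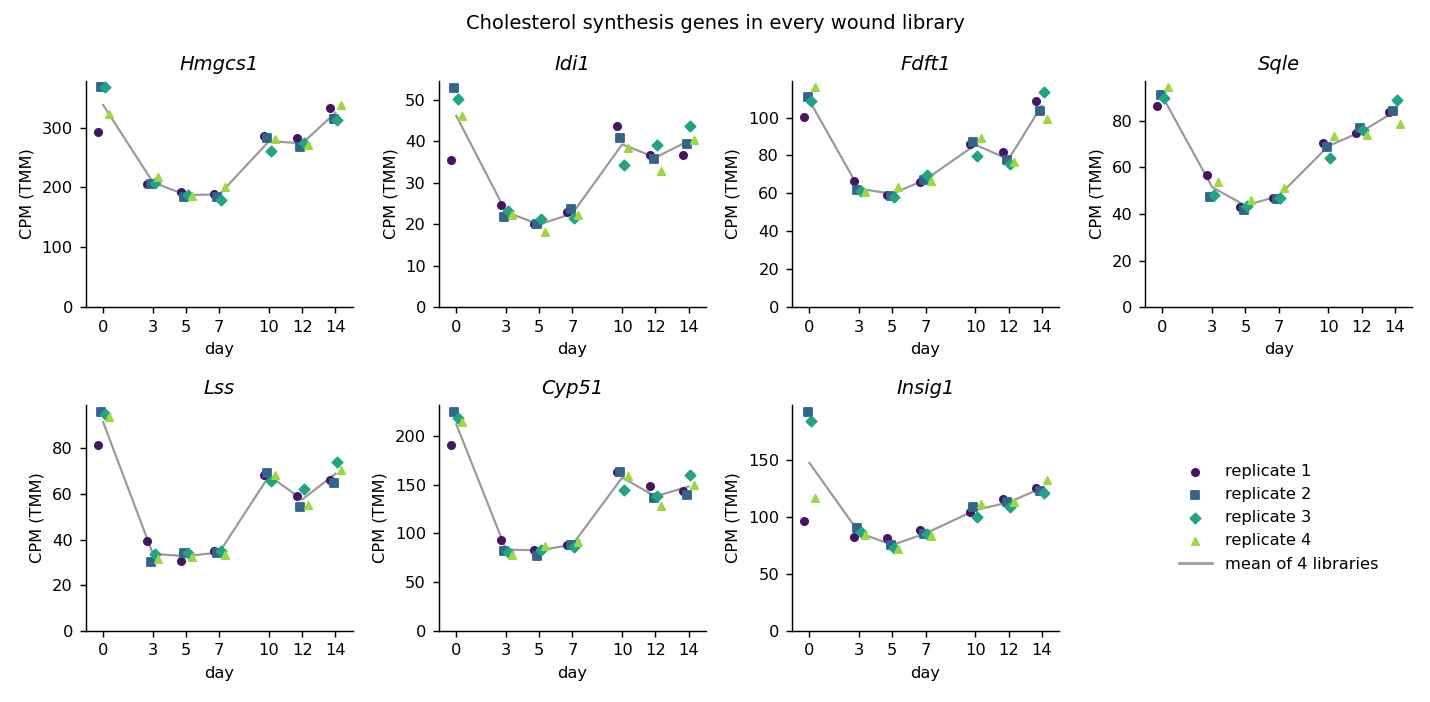
Level of each gene in every library, as CPM with TMM scaling on a linear axis from 0, against the day of sampling. Points are single libraries, with symbols for the replicate number, and the grey line joins the means of 4 libraries. All 7 genes are lowest between days 3 and 7, and Insig1 on day 0 splits into 2 libraries at 96.3 and 116 CPM and 2 at 184 and 192 CPM.

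By counts, all 7 members were lower than day 0 on days 3, 5, 7, 10 and 12, and 2 of 7 (Lss and Cyp51) on day 14. Among all genes tested, the share called lower was 34.8%, 30.6%, 24.8%, 26.9%, 25.6% and 34.5% on days 3, 5, 7, 10, 12 and 14. No member was called higher on any day. The 4 wound libraries lay wholly below the 4 controls for 7 of 7 members on days 3, 5 and 7, for 5 on days 10 and 12 (all but Idi1 and Insig1) and for 2 on day 14. Of all genes tested, 28.6%, 23.2%, 19.3%, 21.9%, 20.2% and 27.3% lay wholly below the controls on days 3, 5, 7, 10, 12 and 14. The exact permutation test of 4 libraries against 4 gave its smallest possible p, 0.0286, for each of these. The median log2 fold change of the members was -0.81, -1.05, -0.92, -0.39, -0.39 and -0.20 on days 3, 5, 7, 10, 12 and 14. Over all genes tested it stayed between -0.06 and 0.00.

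The size of these changes was moderate. No member passed the criteria of the study's methods (unadjusted P under 0.05 and a log2 difference of more than 1.5, up or down). Of all genes tested, 18.9%, 13.9%, 9.4%, 9.47%, 7.39% and 14.0% passed these on days 3, 5, 7, 10, 12 and 14. Lss on day 5 came closest, at -1.48. It went past 1.5 on that day against day 0 replicates 2 and 3 alone (-1.54) and without day 0 replicate 1 (-1.52), and with upper quartile factors on days 3 and 5 (-1.53 and -1.54). With library size only, a stricter filter, the 8 libraries alone or limma with 0.1 added it also lay just past that limit on day 5. The day 10 count of 7 was 6 with upper quartile factors, library size only, no filter or limma, Idi1 being lost (adjusted p from 0.0611 to 0.206), and 5 with the 8 libraries alone, where Insig1 was lost as well (adjusted p = 0.106, edgeR). The day 12 count of 7 depended on the scaling. Scaling by library size alone moved the median of all genes by 0.14 on day 12 and 0.13 on day 14 relative to TMM, and 4 of 7 members were then called on day 12. The calls of days 10 and 12 also depended on the controls, with 5 of 7 members passing on each day against day 0 replicates 1 and 4 alone. On day 14, the count was 4 against that pair (Lss and Cyp51 lower, Hmgcs1 and Insig1 higher) and 5 against replicates 2 and 3, all lower. It was 4 without day 0 replicate 1 alone, when Idi1 (adjusted p = 0.0102) and Insig1 (adjusted p = 0.00599, edgeR) also passed as lower.

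**Figure D2:**
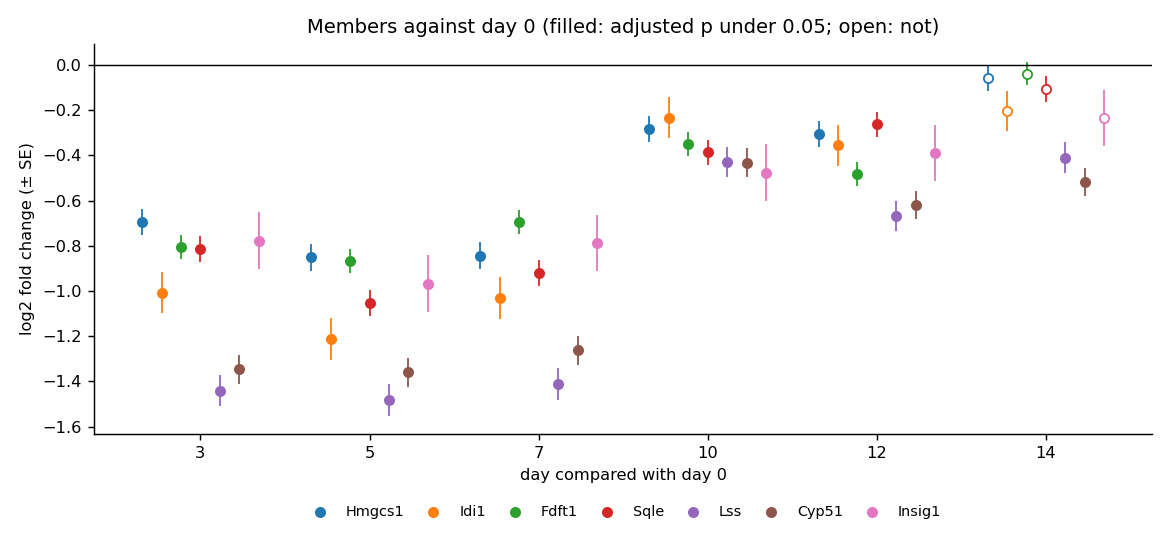
Log2 fold change of each gene on each day against day 0, with the standard error from the edgeR fit of 28 libraries. Filled points passed an adjusted p of 0.05 and open points did not. Values lie between -0.70 and -1.48 on days 3 to 7, between -0.23 and -0.67 on days 10 and 12, and 5 of 7 points are open on day 14.

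Between neighbouring time points, the clearest step was from day 7 to day 10. All 7 members had every day 10 library above every day 7 library, against 17.3% of all genes tested. By the adjusted p, 6 of 7 were called higher, against 14.3% of all genes tested. The rises were 97.6% for Lss, 77.8% for Cyp51, 73.8% for Idi1, 47.3% for Hmgcs1, 44.8% for Sqle and 27.3% for Fdft1. Insig1, with a difference of 24.0%, had adjusted p = 0.0584 (edgeR). Across the alternative fits (edgeR, DESeq2 or limma) its adjusted p ran from 2.74e-05 to 0.124, so this call depended on the fit. From day 3 to day 5 only Sqle was called, lower, against 11.4% of genes. From day 5 to day 7 only Fdft1 was called, higher, against 13.9%. From day 10 to day 12, 3 of 7 members were lower (Fdft1, Lss and Cyp51), against 20.7%. These 3 calls were lost under library-size scaling, which called 1 member, Sqle, as higher, and without day 10 replicate 1 or 2 or day 12 replicate 4 only 1 member was called. Sqle on days 3 to 5 was joined by Hmgcs1, for 2 calls, without day 3 replicate 1, 2 or 3 or day 5 replicate 3. The count from day 5 to day 7 was 0 without day 5 replicate 3 and 2 without day 5 replicate 4. From day 12 to day 14, 4 of 7 were higher (Hmgcs1, Fdft1, Sqle and Lss), against 19.9%. The largest of these last rises was 36.2%, for Fdft1.

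Ordered by mean CPM, day 0 came first and day 5 last for each of the 7 genes. Day 14 was second for every gene but Cyp51, in which day 10 was second. Neighbours in this order often overlapped. Libraries of day 14 overlapped those of day 0 for Hmgcs1, Idi1, Fdft1, Sqle and Insig1, and days 7 and 3 overlapped for all genes but Hmgcs1.

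The members did not fall by the same amount. Ratios between members within a library were compared with day 0 by the exact permutation test, a comparison chosen after the values were seen. On day 7, 13 of the 21 pairs had no overlap with day 0 (exact permutation p = 0.0286 each, 0.0462 after adjustment over 21 pairs). The pairs share the same 7 genes and are not independent. The share of pairs of other genes without overlap was not computed, so this count is a description only. On that day the log2 ratio of Hmgcs1 to Lss was 2.45 against 1.88 on day 0, and that of Hmgcs1 to Cyp51 was 1.09 against 0.67. Lss was lower relative to each of the other 6 members, and Cyp51 relative to each of the others but Lss. Counts of such pairs on the other days ran from 3 of 21 on day 10 to 12 of 21 on day 3. With 4 libraries against 4 the adjusted value depends only on how many pairs reach the smallest p, and the 12 pairs of day 3 gave 0.0501, so it does not set day 7 apart from the other days. On day 3 the log2 ratio of Hmgcs1 to Lss was 2.63, further from day 0 than on day 7.

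The 14 other enzymes of cholesterol synthesis followed the members with a few exceptions. Of these, 11, 13, 12, 9, 13 and 6 were lower on days 3, 5, 7, 10, 12 and 14, against 34.8%, 30.6%, 24.8%, 26.9%, 25.6% and 34.5% of all genes, so the count of day 14 was near the share of all genes. The number called higher was 1 on day 3, 0 on days 5 to 12 and 2 on day 14. Genes called higher made up 31.8%, 29.0%, 25.6%, 23.5%, 21.7% and 28.2% of all genes on days 3, 5, 7, 10, 12 and 14. The median log2 fold change of these 14 was -0.73, -0.83 and -0.79 on days 3, 5 and 7, and -0.14 on day 14. Mvd, the decarboxylase of the mevalonate branch, showed the largest fall of that branch on day 5 (-1.22, SE 0.0795) and Acat2, the thiolase that starts it, the smallest (-0.36, SE 0.0897).

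In the sterol branch, Sc5d, a desaturase, showed the smallest fall that passed the test on day 5, with a log2 fold change of -0.47. Its day 5 libraries, at 7.42 to 8.21 FPKM, overlapped its controls, at 7.93 to 14.3 FPKM. Other genes of this branch named here were chosen after their values were seen. Msmo1, a sterol methyl oxidase, was -1.93 on day 5 and remained at -0.80 on day 14. Hsd17b7, a sterol reductase, was lower on all 6 days by 1.28 or more on the log2 scale and showed no return by day 14, when it was -1.45 (adjusted p = 1.08e-08, edgeR). Its controls were spread from 10.8 to 23.8 FPKM. Ebp, an isomerase, stood apart. It rose by 0.25 on day 3 and was between 0.02 and 0.05 on days 5, 7 and 10, with no call. On day 14, Acat2 and Fdps, the farnesyl diphosphate synthase, were higher than on day 0, by 0.23 and 0.31 on the log2 scale.

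**Figure D3:**
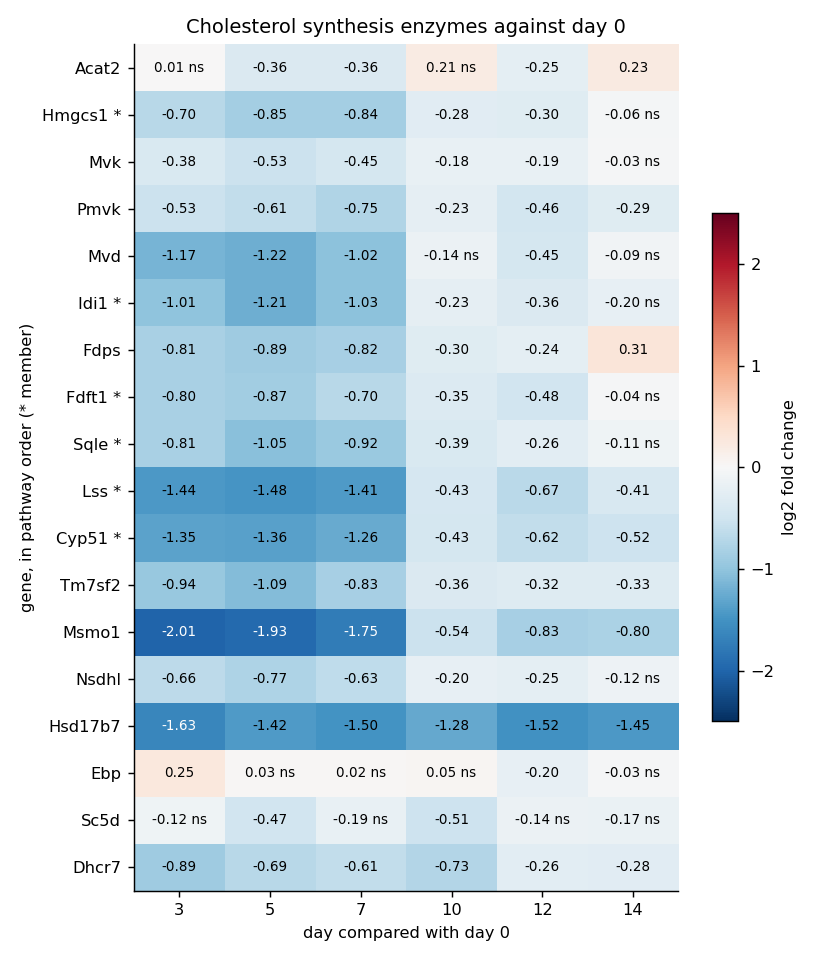
Log2 fold change against day 0 for enzymes of cholesterol synthesis, ordered along the pathway, with the 6 members that are enzymes marked by a star. Blue is lower and red is higher than day 0, and ns marks values that did not pass an adjusted p of 0.05. The largest falls shown are in Msmo1, Hsd17b7, Lss and Cyp51, and Ebp is the one row with no fall on days 3 to 10.

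The regulators of the pathway moved in both directions. Srebf2, which encodes SREBP2, was -0.15 on day 3 without passing the test. It fell by 0.45, 0.42 and 0.39 on days 5, 7 and 10, and its difference was 0.00 on day 12. Srebf1, which encodes the factor for fatty acid genes, rose by 0.43 on day 5, the largest increase of this list, and fell by 0.32 on day 12. Insig2, a relative of Insig1, showed the largest fall of the list on day 5 (-0.97) and was lower on each day from 3 (-1.25) to 12 (-0.29). Of the 6 regulators, 3, 4, 3, 2, 3 and 0 were lower on days 3, 5, 7, 10, 12 and 14, beside 34.8%, 30.6%, 24.8%, 26.9%, 25.6% and 34.5% of all genes. Transcript levels do not measure the processing of SREBP proteins.

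Uptake genes did not move together. Of 10, 6 were higher and 3 lower on day 3, 6 higher and 2 lower on day 5, and 2 higher and 4 lower on day 14. Among all genes, 31.8%, 29.0% and 28.2% were called higher on days 3, 5 and 14 and 34.8%, 30.6% and 34.5% lower, so the counts of day 14 and of genes lower on days 3 and 5 were near these shares. Lipa, the lysosomal lipase that frees cholesterol from lipoproteins, was named after its values were seen. It was higher on all 6 days, and its log2 fold change reached 1.52 on day 10.

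Genes of efflux, esterification and oxysterol synthesis were followed as a list of 10. Of these, 6 were higher and 3 lower on day 3, 7 higher and 2 lower on day 5, and 0 higher and 7 lower on day 14. Among all genes, 31.8%, 29.0% and 28.2% were higher and 34.8%, 30.6% and 34.5% lower on these days. Ch25h, the cholesterol hydroxylase of activated macrophages, rose by 2.88 on day 3 and 2.04 on day 5, and its counts went from between 17 and 52 per control library to between 228 and 289 on day 3. Abca1, the main exporter of cellular cholesterol (named after its values were seen), rose by 0.95 and 0.93 on these days. Cyp27a1, a mitochondrial sterol hydroxylase, showed the largest fall of this list on day 5 (-0.69). The 6 macrophage markers summed to 1747 to 2676 CPM on day 0 and to 4738 to 4911 CPM on day 3, and their part in these values was not tested.

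Fatty acid synthesis, the other lipid pathway under SREBP control, held genes that rose as well as genes that fell. Of 10, 4 were higher and 4 lower on day 3, 6 higher and 3 lower on days 5 and 7, and 4 higher and 0 lower on day 10. Among all genes, 31.8%, 29.0%, 25.6% and 23.5% were higher and 34.8%, 30.6%, 24.8% and 26.9% lower on days 3, 5, 7 and 10, so the counts of day 3 were near the shares of all genes. Acaca, the carboxylase that commits acetyl-CoA to fatty acids, rose by 1.46 on day 3 and 1.40 on day 5, the largest increase of the list. Fasn, the fatty acid synthase (named after its values were seen), rose by 1.05 on day 5, from 140 ± 58.6 to 282 ± 47.1 FPKM (SD, n = 4). Elovl6, an elongase, showed the largest fall (-1.26 on day 5). On day 5, every member and 13 of the 14 other sterol enzymes were lower while these 6 fatty acid genes were higher in the same libraries. The difference between the lists was not tested.

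**Figure D4:**
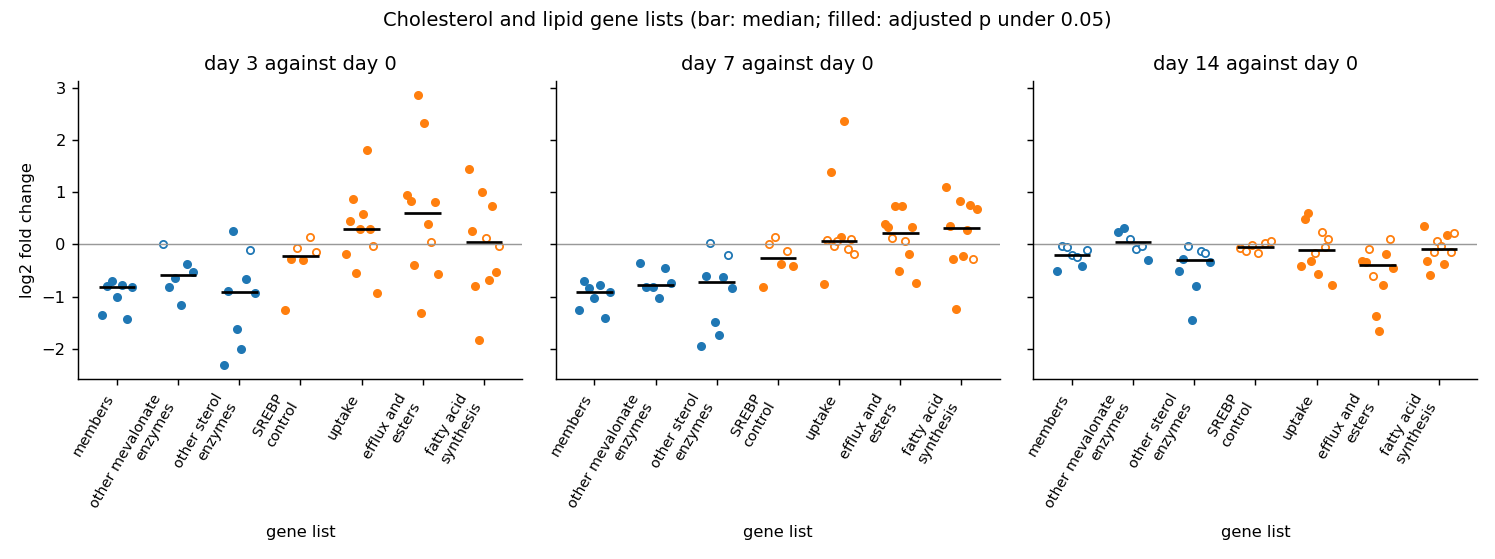
Log2 fold change against day 0 of the genes of 7 lists on days 3, 7 and 14. Each point is a gene, filled where it passed an adjusted p of 0.05, black bars are list medians, and the first 3 lists, in blue, are the synthesis genes. The member medians are -0.81, -0.92 and -0.20, and the uptake, efflux and fatty acid lists have points on both sides of 0 on each day.

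The 10 genes most like the members over the 28 libraries, by the correlation of their log2 CPM with the mean standardised level of the 7, were Hacd3 (r = 0.97), Nsdhl, AAdacl4fm3, Tlcd4, Mvd, Msmo1, Sdr16c5, Aadac, Cds1 and Tecr (r = 0.94), of 10729 genes ranked. Nsdhl, Mvd and Msmo1 are cholesterol synthesis genes. Hacd3 and Tecr encode enzymes of very-long-chain fatty acid elongation. The 5 least like were Atp6v1a (r = -0.94), Fbh1, Pmaip1, Rnf19b and Mlkl (r = -0.93), the last being the necroptosis gene that the study is about. Among the members, r between pairs over the libraries ran from 0.84 to 0.99 with a median of 0.94. After the day means were removed, it ran from -0.03 to 0.82 with a median of 0.48, and on the later days alone, without the split libraries of day 0, from -0.35 to 0.69 with a median of 0.28. For Hmgcs1 and Insig1 the value was 0.82 with day 0 and 0.38 without it. The libraries share the same days and scaling, so these values are descriptions of a shared time course.

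Markers of several cell types moved over the same days, and this is bulk tissue, in which fewer cells of a type and less RNA per cell cannot be told apart. The 8 sebaceous gland markers summed to 1392 to 1669 CPM in the controls and to 446 to 488 CPM on day 3. Their sum was 689 to 751 CPM on day 5, 632 to 679 CPM on day 7 and 1017 to 1122 CPM on day 10. On day 12 it was 623 to 872 CPM, with all 8 markers called lower, against 25.6% of all genes. The members summed to 750 to 800 CPM on that day. On day 14 the sebaceous sum was 766 to 976 CPM. No marker of this list was at 0 in any library. Of the 8, 7 fell on day 3, with Scd3 at -3.31, and Cidea, which fat tissue also expresses, rose by 1.58. The 6 suprabasal keratinocyte markers summed to 3409 to 3826 CPM in the controls, to 1150 to 1562 CPM on day 3 and to 1102 to 1436 CPM on day 14. In between, on day 7, they reached 2927 to 3441 CPM. This day 7 sum overlapped the controls in CPM. In FPKM it did not, at 1210 to 1438 against 1629 to 1947 in the controls. On day 7, 3 of the 6 markers were called lower and 1, Krt1, higher (log2 fold change 0.78). The shares of all genes were 24.8% and 25.6%, and all 7 members were lower. On day 14 the CPM sum was low while 5 of 7 members did not pass the test. Most of the 6 basal keratinocyte markers were lower on days 3 to 12, as the members were. Of these 6, 5 fell on days 3, 5 and 7, 4 on days 10 and 12 and 3 on day 14. Among all genes, 34.8%, 30.6%, 24.8%, 26.9%, 25.6% and 34.5% were called lower on days 3, 5, 7, 10, 12 and 14. The median log2 fold change of the 6 was -0.89, -1.22, -1.19, -0.71, -0.61 and -0.39 on these days. Krt14, a keratin of the basal layer, did not pass on any day, and Trp63, a transcription factor of that layer, rose by 0.69 on day 14. The basal sum was 3853 and 3963 CPM in day 0 replicates 2 and 3 and 6955 and 8098 CPM in replicates 1 and 4. It was 3078 to 3525 CPM on day 5, 4474 to 5143 CPM on day 10 and 4729 to 5921 CPM on day 14. The sums of days 10 and 14 lay between those of the low and the high controls.

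The 6 neutrophil markers summed to 16.4 to 42.7 CPM in the controls and to 4359 to 5503 CPM on day 3. By day 7 the sum was 540 to 955 CPM, and by day 14 it was 15.2 to 18.6 CPM. Hair follicle markers summed to 232 to 2088 CPM in the controls and to 7.48 to 13.5 CPM on day 3. Their sum was within the wide range of day 0 on day 7, at 1286 to 1728 CPM, and on day 10, at 246 to 285 CPM. On day 10, 4 of the 7 markers were called lower than day 0, against 26.9% of all genes. The 2 called higher, against 23.5%, were Msx2 (1.11) and Hoxc13 (0.66). On day 12 the sum stood at 4151 to 5434 CPM, above every control. The 6 skeletal muscle markers summed to 17400 to 29490 CPM on day 0 and at most 9903 CPM on any later day. The summed level of the 7 members was 883 to 1134 CPM in the controls, 490 to 510 CPM on day 5 and 869 to 915 CPM on day 14. Over the 28 libraries its correlation, on the log2 scale, was 0.79 with the sebaceous sum, 0.72 with the basal keratinocyte sum, 0.58 with the hair follicle sum, 0.11 with the suprabasal sum, 0.68 with the skeletal muscle sum, -0.78 with the macrophage sum and -0.87 with the neutrophil sum. After the day means were removed, the same values were 0.39 for the sebaceous, -0.51 for the basal, -0.38 for the hair follicle, 0.41 for the suprabasal, -0.76 for the muscle, 0.23 for the macrophage and -0.66 for the neutrophil sum. The sign thus turned for the basal, hair follicle, muscle and macrophage lists. These values include the split libraries of day 0 and were not computed without them. In day 0 replicates 1 and 4 the muscle sum was 28010 and 29490 CPM and the member sum 883 and 1003 CPM. In replicates 2 and 3 the muscle sum was 17400 and 17720 CPM and the member sum 1134 and 1115 CPM. A list of 4 wound-edge keratinocyte genes summed to 468 to 709 CPM in the controls and to 2454 to 2984 CPM on day 3. Its correlation with the member sum was -0.75 over the 28 libraries and -0.35 after the day means were removed. The part of these cell types in the members' levels was not tested.

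**Figure D5:**
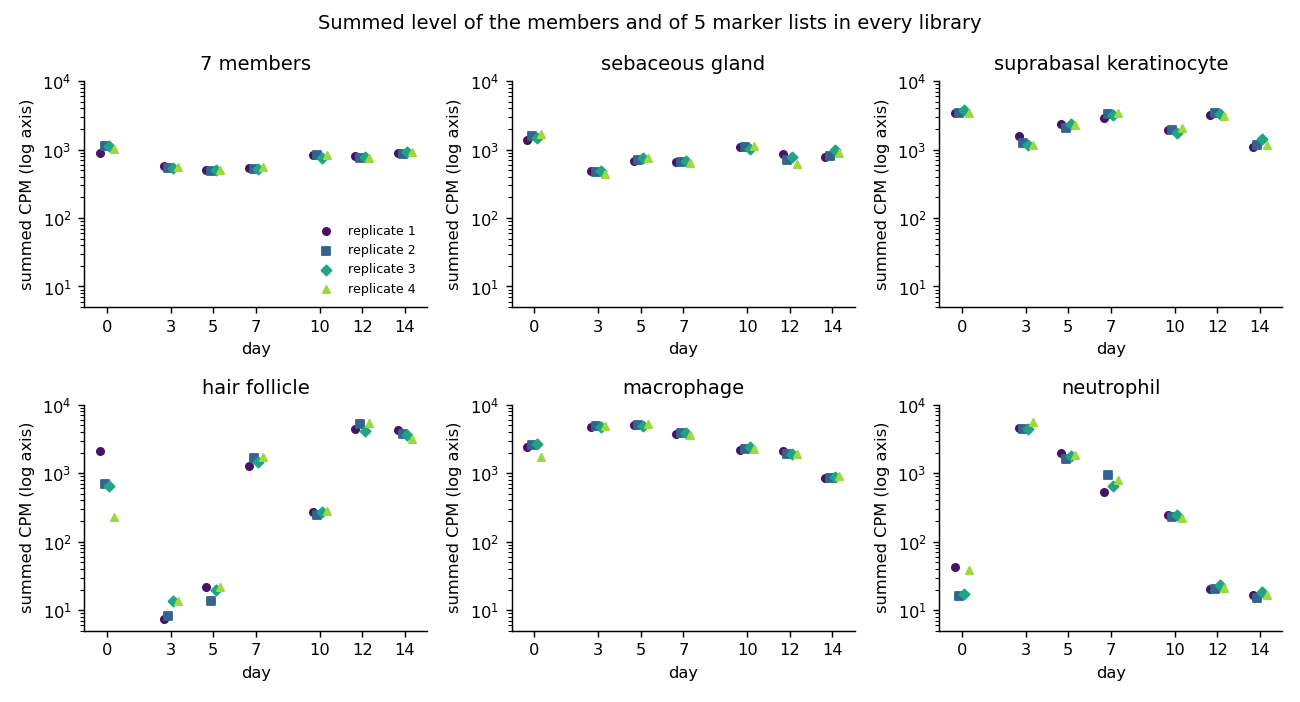
Summed CPM, on a log axis, of the 7 members and of 5 lists of cell type markers in every library, against the day. Points are libraries, with symbols for the replicate number. The members and the sebaceous list are both low on days 3 to 7, at 490 to 569 and 446 to 751 CPM, while the neutrophil list is highest on day 3. On day 12 the members are at 750 to 800 CPM and the sebaceous list is at 623 to 872 CPM.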

How the data were processed

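Libraries were prepared from TRIzol-extracted total RNA with the VAHTS Universal V6 kit. Raw counts per gene symbol, and FPKM values that follow from those counts, were deposited by the authors. Per the labels, the submitters' processing notes name fastp, R 3.2.0 and the build mm10. The aligner, counting tool and strandedness are not given in the sources used here. Library totals ran from 36706513 to 40655764 counts, and 0 columns were left unmapped. The precision of a count is limited by counting error, and 0 counts are compatible with a level of as many as 3.

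The count table was fitted with edgeR 4.0.16 under R 4.3.3 (TMM scaling, filterByExpr on the 7 day groups, glmQLFit and glmQLFTest, two-sided, no covariates) in 1 fit of all 28 libraries, with 21 residual degrees of freedom. The filter kept 18107 of 29068 genes, over which the Benjamini-Hochberg adjustment was made. A gene was called at an adjusted p under 0.05. The standard error and the interval of a log2 fold change were derived from the quasi-likelihood F statistic. Single genes were also compared on log2 CPM (prior count 2) by an exact permutation test, two-sided, and FPKM was used to compare levels between genes. The scripts were tested on simulated counts.

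The members, the gene lists and the tests were chosen with earlier results of these data known. By rule, all 7 members were named, and of each other list the genes with the largest and smallest log2 fold change among those called on day 5, the day on which the member median was farthest below day 0 (it was above day 0 on no day), together with Srebf1 and Srebf2, the 10 genes most and 5 least like the members among those with a mean CPM of at least 10, and promoters with TCACNCCAC. Some genes that the rule names are counted in their lists and are not reported here. Gene overlaps were read from GENCODE M21 (GRCm38, the same build as mm10), and promoter windows from RefSeq.

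Alternatives were DESeq2 1.42.0 and its size factors, upper quartile or no composition scaling, a minimum of 10 counts throughout or no filter, the 8 libraries of each comparison alone, limma 3.58.1 on FPKM (log2 after adding 1, with a mean FPKM of at least 1 or unfiltered, or after adding 0.1), a block for the replicate number, Xist as covariate, stricter calls, and the omission of each library in turn. The comparisons with 1 pair of day 0 libraries and the ratios between members were chosen after seeing the data.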

Additional observations from a re-analysis of the deposited data

Results flagged for a closer look

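Among the 49 groups of 4 libraries (7 genes on 7 days), 3 had a library whose gap to the nearest other, divided by the range of the group, was above Dixon's critical value of 0.829. Chance gives about 1 in 20 such groups. Hmgcs1 in day 3 replicate 4 was at 7.761 log2 CPM, with the other 3 between 7.68 and 7.692. Sqle in day 7 replicate 4 was at 5.676 log2 CPM, with the others between 5.539 and 5.55. Lss in day 0 replicate 1 was at 6.349 log2 CPM, with the others between 6.551 and 6.584. Without day 0 replicate 1, 4 of 7 members were called on day 14 in place of 2.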

How the results depend on the processing

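The calls of all 7 members on days 3, 5 and 7 against day 0 kept their direction and their side of the threshold under every alternative tried, apart from the limit of 1.5 on the log2 fold change. Over all member comparisons, 1471 of 1624 alternative values kept both. With the limit of 1.5 and an unadjusted P under 0.05 in the fit of all libraries, 0 members were called in each of the 11 comparisons, and 3, 2, 2, 0, 1 and 0 other synthesis genes on days 3 to 14. On day 12 the member count of 7 became 4 with library size only, 4 with limma on log2(FPKM + 1) or log2(FPKM + 0.1) and a minimum FPKM, and 3 with limma without it. The other synthesis count of 13 on that day became 5 under the same 4 settings and 7 at an adjusted p under 0.01, and that of day 14 went from 8 to 5 with limma without a filter. The day 14 member count of 2 was 4 against day 0 replicates 1 and 4 and 5 against replicates 2 and 3. Limma on FPKM used library size only, and otherwise the cause was not tested.

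From day 3 to 5 the count of 1 became 2 with DESeq2 or its size factors and 4 with the 8 libraries alone. From day 5 to 7 the count of 1 became 2 with upper quartile factors, library size only, the 8 libraries alone or each limma setting, and 0 at an adjusted p under 0.01. From day 10 to 12 the count of 3, all lower, became 5 with the 8 libraries alone, where Sqle and Insig1 were added as higher. It became 1 with the Xist covariate or an adjusted p under 0.01 (Lss, lower) and 1 with library size only or each limma setting (Sqle, higher, with none of the 3 kept). Xist had at most 13 counts in any library, so that covariate carried no information on sex. Leaving out 1 library gave 2 to 4 calls on day 14, 1 to 2 from day 3 to 5, 0 to 2 from day 5 to 7 and 1 to 3 from day 10 to 12.

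Signs turned only for values that had not passed the test, apart from Insig1 on day 12. On day 14 against day 0, Hmgcs1 was 0.071 with library size only, 0.015 with the 8 libraries alone and 0.075, 0.075 and 0.076 with limma, and -0.075 to 0.033 without 1 library. Fdft1 was 0.0082 with upper quartile factors, 0.088 with library size only, 0.033 with the 8 libraries alone and 0.082, 0.082 and 0.089 with limma, and -0.070 to 0.074 without 1 library. Sqle was 0.019 with library size only and 0.019, 0.019 and 0.020 with limma. Against day 0 replicates 1 and 4 alone, Hmgcs1 was 0.16, Idi1 0.053, Fdft1 0.050 and Insig1 0.31 on day 14, and Insig1 was 0.099 on day 12. From day 5 to 7, Hmgcs1 was -0.0063 with DESeq2 size factors and -0.0060 with DESeq2, and -0.040 to 0.038 without 1 library. From day 10 to 12, Hmgcs1 was 0.069 with library size only, 0.070, 0.070 and 0.071 with limma and 0.00065 with the Xist covariate, and -0.043 to 0.0088 without 1 library. From day 3 to 5, Cyp51 was 0.022 with upper quartile factors, 0.0017 with library size only and 0.0046, 0.0046 and 0.0050 with limma, and -0.085 to 0.020 without 1 library, and Lss was -0.13 to 0.0072 without 1 library.

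Replicate numbers did not pair the libraries. Of 44 same-numbered pairs between compared days, 8 correlated best with their own number, and r ran from -0.30 to 0.55. With the replicate block, 2 members were called from day 10 to 12 in place of 3, Fdft1 being lost at -0.14, 10 other synthesis genes were called on day 10 in place of 9, and the other counts kept their values.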
